A study of Mus musculus with 12 samples.

Results

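The T-cell receptor gene segments measured here are the 52 transcript clusters (the array's unit, meant to read 1 gene) for which every gene symbol in the platform annotation is a V, D, J or C segment of the T-cell receptor alpha, beta, gamma or delta locus, out of 23410 clusters with a symbol. Of them 45 belong to the alpha locus, 2 to beta, 4 to gamma and 1 to delta. All 52 carry V segment symbols. No cluster of a D, J or constant segment met the rule, so no cluster annotated to a constant region was available to follow a finished receptor chain.

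RNA came from bone marrow cells labelled pro-B, the stage at which the antibody heavy chain gene is assembled, of mice 1 month old kept under specific-pathogen-free conditions, and 12 arrays were run. Of these, 4 were from Cd72+/-;Pax5+/- mice (the double mutants), which carry heterozygous losses of both Cd72 and Pax5, 4 from Pax5+/- mice, which carry the Pax5 loss alone, and 4 from wild type (WT) mice. The mutants' cells are named in the titles as preleukemic precursor B cells. The series title concerns B-cell leukemia and the joint loss of the 2 genes. The comparisons ask what the Pax5 loss changed and what the added Cd72 loss changed. Pax5 encodes the transcription factor that commits cells to the B lineage, and Cd72 an inhibitory co-receptor of B cells. The labels name no strain and do not say whether the losses are germline or confined to a cell type. They also leave unsaid whether each array of a group had its own animal, so every p-value speaks only to the scatter among these arrays, part or all of which may be technical.

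T-cell receptor chains are encoded by V, D, J and constant segments that the RAG recombinase joins in developing T cells. Alpha pairs with beta and gamma with delta, and the delta segments lie inside the alpha locus. V segments can also be transcribed before they are joined, as germline transcripts, when their chromatin is open. In early lymphoid progenitors, opening of the gamma locus depends on the interleukin-7 receptor and Stat5, and progenitors that lack Pax5 keep the capacity to form other blood lineages. The clusters here are annotated to V segments, and their values do not show whether a segment was joined. Where their probes lie was not examined.

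Most of the 52 clusters could not be tied to 1 segment. Only 10 list a single symbol, and 42 list several. Among the 52 there were 41 distinct sets of values, because 22 clusters, each in a pair with the same accession list, held the same values on every array. In all, 27 different symbols are listed: 20 alpha, 2 beta, 4 gamma and 1 delta. RefSeq (assembly GRCm38.p6) lists 270 T-cell receptor segments, 178 of them V segments, with alpha and delta on chromosome 14, beta on chromosome 6 and gamma on chromosome 13. The symbols Trav3-3 and Trav3n-3, members of a V family with duplicated copies in the alpha locus, stand together in 29 clusters. A cluster with several symbols is given below by its number with all the symbols it lists. Which of the listed segments its probes read was not examined.

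Some facts of the arrays bear on every value. The probes for the targeted genes check the labels only in part, because the labels do not state which parts were deleted. Pax5 averaged 11.2 in Cd72+/-;Pax5+/-, 10.97 in Pax5+/- and 11.57 in WT arrays (log2 signal), and Cd72 averaged 7.51 in Cd72+/-;Pax5+/-, 10.19 in Pax5+/- and 8.90 in WT arrays. WT replicates 1 and 3 resembled each other, and so did replicates 2 and 4: over all tested clusters the SD of the difference was 0.109 and 0.117 inside these pairs and 0.27 to 0.28 between them. Over the 52 V clusters it was 0.114 and 0.145 inside and 0.437 to 0.462 between. The means of the 2 WT pairs differed by over 0.5 in 4 of the 52 (7.69%), beside 6.7% of all tested clusters. These were 3 gamma clusters and 1 of Trav14-1, and in the other 48 replicates 2 and 4 differed from 1 and 3 by -0.245 to 0.47. Pax5+/- replicates paired in the same way over all clusters, less sharply. Xist, the RNA of the inactive X chromosome, lay at 11.75 to 11.9 in Cd72+/-;Pax5+/- and at 5.00 to 5.52 in the other arrays, and the Y-linked gene Uty lay at 4.88 to 5.19 in Cd72+/-;Pax5+/- and at 8.85 to 9.74 in the others. Sex and the Cd72+/-;Pax5+/- genotype therefore cannot be told apart. The deposited table gives no detection call, so it is not known which V clusters lay above background.

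Across the 52 clusters, changes over 2-fold were found in 4: 3 of the gamma locus, which were lower in Pax5+/- than in WT, and 1 of Trav14-1, which was highest in Pax5+/-. The 40 clusters called in no comparison (37 alpha, 1 beta, 1 gamma and 1 delta) had group differences between -0.36 and 0.33 on the log2 scale. Over all 52, the median SD within a group was 0.0754 in the double mutants, 0.0730 in Pax5+/- and 0.0705 in WT. Over all tested clusters it was 0.0772 in the double mutants, 0.0942 in Pax5+/- and 0.0881 in WT. An SD above 0.5 was found in 0 of the 52 in either mutant group and in 4 in WT, namely the same 3 gamma clusters and Trav14-1. Of all tested clusters, 0.0384% had such an SD in the double mutants, 0.688% in Pax5+/- and 1.45% in WT.

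A cluster is called here at a limma adjusted p under 0.05 over all 23410. In Pax5+/- relative to WT, 8 of 52 passed (1 higher and 7 lower, 15.4%), where 7.47% of all tested clusters passed (4.28% higher and 3.2% lower). Counting clusters with the same values once, it was 7 of 41. In the double mutants relative to WT, 5 of 52 passed (3 higher and 2 lower, 9.62%), beside 7.78% of all clusters (4.12% higher, 3.66% lower), a share near that of the array as a whole. In the double mutants relative to Pax5+/-, 6 of 52 passed (5 higher and 1 lower, 11.5%), beside 9.79% of all clusters (4.44% higher, 5.35% lower), and 4 of 41 profiles. With the closest pairs of arrays in each group averaged to 1 value, 1, 0 and 1 of the 52 passed in limma in these comparisons, beside 1.2%, 1.24% and 1.79% of all clusters. At an unadjusted p under 0.05 it was then 15, 6 and 8, beside 8.97%, 9.67% and 11.1%.

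**Figure D1:**
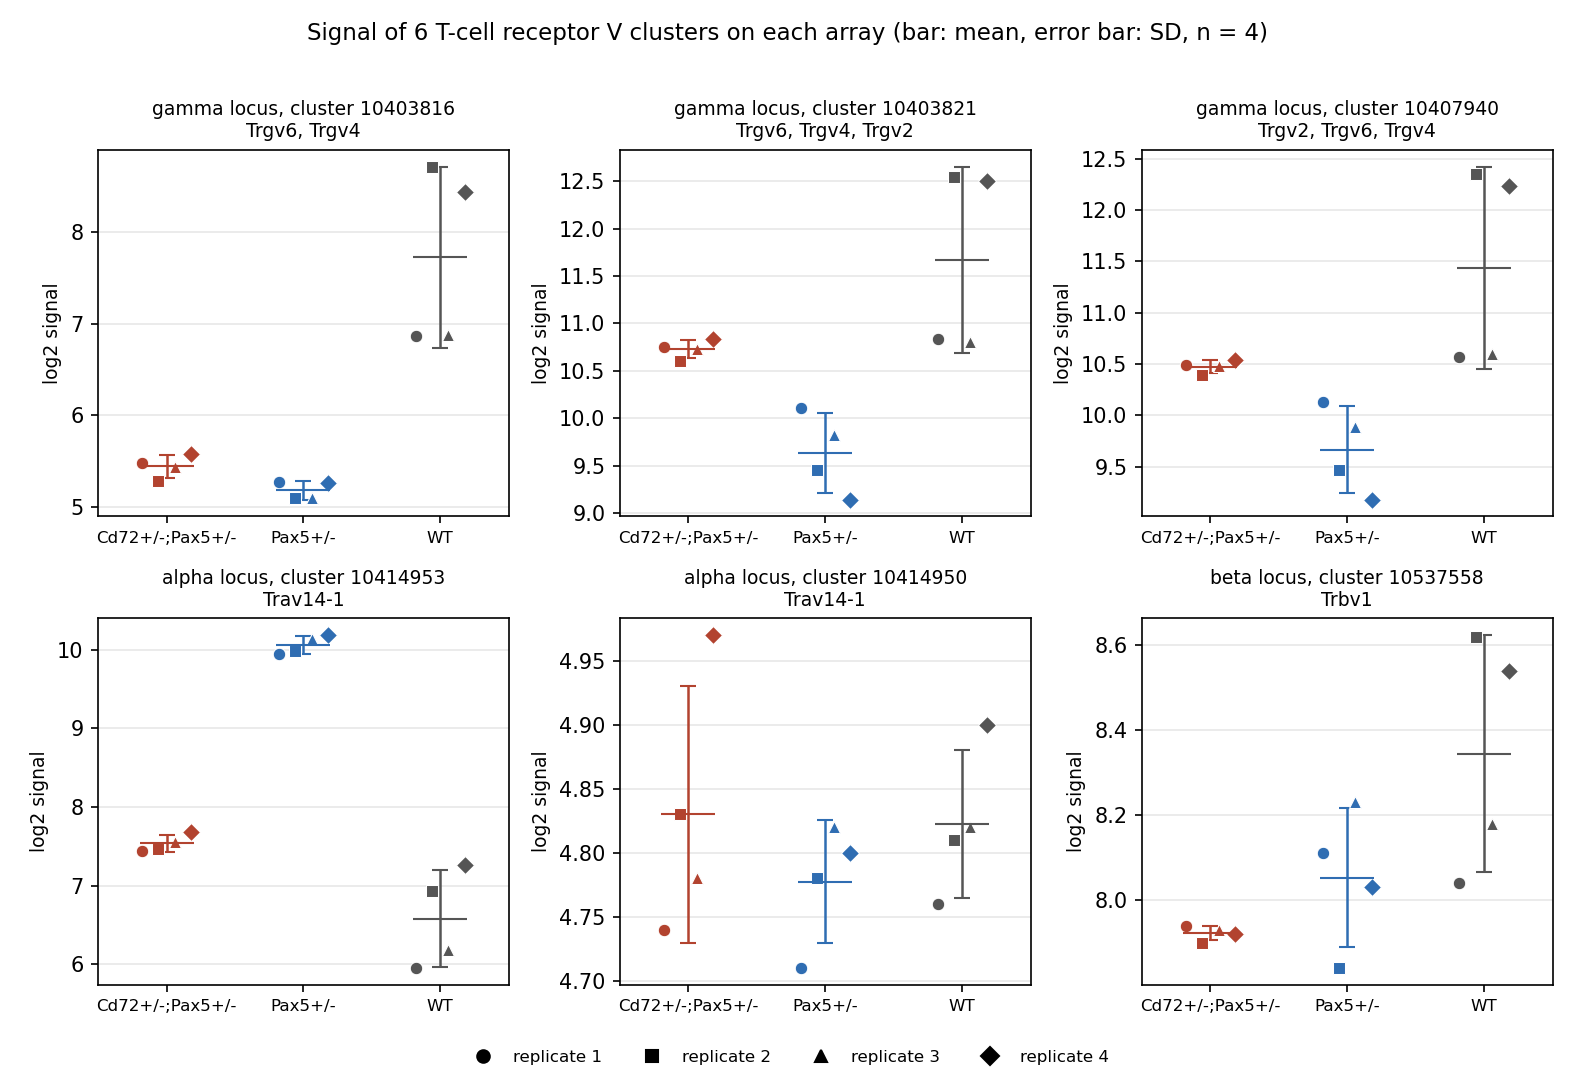
Log2 signal of 6 V clusters on each array (points, with a marker per replicate), with the group mean (bar) and SD (error bar, n = 4), for Cd72+/-;Pax5+/-, Pax5+/- and WT from left to right. Each panel has its own vertical scale. In the 3 gamma clusters WT replicates 2 and 4 stand above WT replicates 1 and 3, and in cluster 10414953 (Trav14-1) the Pax5+/- arrays, at 9.95 to 10.19, stand above all others.

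In the comparisons with WT, the largest falls among the 52 were in the gamma locus. Cluster 10403816, which lists Trgv6 and Trgv4, read 5.48, 5.28, 5.43 and 5.58 in Cd72+/-;Pax5+/- replicates 1 to 4, 5.27, 5.09, 5.09 and 5.26 in Pax5+/- and 6.87, 8.72, 6.88 and 8.44 in WT. Every mutant array was below every WT array, and WT replicates 2 and 4 were the highest. It fell by 2.55 in Pax5+/- relative to WT (SE 0.352, 5.86-fold lower, limma adjusted p = 0.000466), and its change in the double mutants relative to WT was -2.285 (SE 0.352, 4.87-fold lower, limma adjusted p = 0.00114). The difference of 0.27 between Cd72+/-;Pax5+/- and Pax5+/- did not pass (limma adjusted p = 0.739), although the arrays of the 2 groups did not overlap. The mutant arrays, at 5.09 to 5.58, lay below the array medians of 6.91 to 7.005, so part of these differences could be hidden.

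Cluster 10403821 lists Trgv6, Trgv4 and Trgv2. Its signal was 10.75, 10.60, 10.73 and 10.84 in Cd72+/-;Pax5+/-, 10.11, 9.45, 9.82 and 9.14 in Pax5+/- and 10.84, 12.55, 10.80 and 12.50 in WT. The Pax5+/- arrays were lowest, replicates 2 and 4 below replicates 1 and 3, while the Cd72+/-;Pax5+/- arrays reached the level of WT replicates 1 and 3. It fell by 2.04 in Pax5+/- relative to WT (SE 0.378, 4.12-fold lower, limma adjusted p = 0.00417). The change of -0.94 in the double mutants relative to WT did not pass (limma adjusted p = 0.181), nor did the difference of 1.10 between Cd72+/-;Pax5+/- and Pax5+/- (limma adjusted p = 0.0946). Those 2 mutant groups did not overlap (two-sided exact permutation test, p = 0.0286, which is the lowest possible with 4 arrays a side).

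Cluster 10407940 lists the same 3 symbols, and differed from cluster 10403821 by 0.02 to 0.30 on each array. It read 10.49, 10.39, 10.48 and 10.54 in Cd72+/-;Pax5+/-, 10.13, 9.47, 9.89 and 9.18 in Pax5+/- and 10.57, 12.35, 10.60 and 12.23 in WT. Every Pax5+/- array was below every Cd72+/-;Pax5+/- array, and those were below every WT array, the nearest being 10.54 in Cd72+/-;Pax5+/- and 10.57 in WT. It fell by 1.77 in Pax5+/- relative to WT (SE 0.377, 3.41-fold lower, limma adjusted p = 0.0107), which did not pass with only these groups in the fit (0.0634). The changes of -0.96 in the double mutants relative to WT (limma adjusted p = 0.169) and of 0.81 in the double mutants relative to Pax5+/- (limma adjusted p = 0.233) did not pass. These 3 clusters list overlapping symbols and cannot be counted as independent measurements of 3 segments.

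Trgv1, a gamma V segment with a cluster of its own (10403825), was singled out after its values were seen as the remaining gamma cluster. It read 5.08, 5.16, 5.04 and 4.94 in Cd72+/-;Pax5+/-, 5.19, 5.27, 5.13 and 5.07 in Pax5+/- and 4.92, 5.07, 5.06 and 4.88 in WT. The groups overlapped in each comparison. None of its differences, 0.18 in Pax5+/- relative to WT, 0.07 in the double mutants relative to WT and -0.11 in the double mutants relative to Pax5+/-, passed the test.

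How far the gamma signal fell depended on which WT arrays were used, in settings chosen after the data were seen. WT replicates 2 and 4 exceeded WT replicates 1 and 3 by 1.705 in each of the 3 clusters. With WT replicates 1 and 3 left out together, the change in Pax5+/- relative to WT was -3.40, -2.90 and -2.62 in clusters 10403816, 10403821 and 10407940. With WT replicates 2 and 4 left out it was -1.70, -1.19 and -0.92, and all 6 of these differences passed (limma adjusted p between 3.2e-09 and 0.0152). In every fit with a WT pair left out, WT held only 2 arrays that resembled each other (SD of the difference 0.109 or 0.117). Such p-values do not take in the distance between the WT pairs. In the double mutants relative to WT, clusters 10403821 and 10407940 changed by -1.80 and -1.815 without WT replicates 1 and 3 (limma adjusted p = 0.000144 and 0.000126), but their changes without WT replicates 2 and 4 were -0.09 and -0.11 (limma adjusted p = 0.87 and 0.828). Cluster 10403816 changed in that comparison by -3.14 without WT replicates 1 and 3 and by -1.43 without WT replicates 2 and 4, and passed in both. With either pair of WT arrays left out, so that the distance between the pairs does not enter the fit, all 3 clusters were higher in Cd72+/-;Pax5+/- than in Pax5+/- (limma adjusted p between 0.000695 and 0.0494). They also passed with only the mutant groups in the fit (limma adjusted p = 0.0394, 0.00187 and 0.0104 in clusters 10403816, 10403821 and 10407940). With the closest pairs as a random block none of the 3 passed in that comparison (limma adjusted p = 0.868, 0.125 and 0.308 in clusters 10403816, 10403821 and 10407940), nor with the pairs averaged (0.919, 0.596 and 0.721). With the pairs averaged none passed in Pax5+/- relative to WT either (limma adjusted p = 0.15, 0.302 and 0.4), nor cluster 10403816 in the double mutants relative to WT (0.188).

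The WT arrays with the higher gamma signal also differed in B-lineage genes. Dntt, which encodes the polymerase that adds bases at joins, read 9.76 and 9.82 in WT replicates 2 and 4, against 11.93 and 11.92 in replicates 1 and 3. Rag2, a subunit of the recombinase, read 8.74 and 8.79 against 10.25 and 10.23, and Il7r, the receptor subunit for interleukin-7, 11.12 and 11.07 against 12.47 and 12.44. The mean of the 11 measured pro-B markers was 11.09 and 11.02 against 11.90 and 11.95, and that of the stromal and endothelial markers 7.63 and 7.68 against 8.08 and 8.07. Within the stromal list the genes differed: Sparc read 9.44 and 9.40 against 10.71 and 10.63, but Alpl 11.34 and 11.42 against 10.76 and 10.85. The part of these differences in the gamma result was not tested. In bulk RNA, fewer cells of a type and less RNA per cell cannot be told apart.

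In the alpha locus, 1 cluster stood apart from the other 44. Cluster 10414953, which lists Trav14-1 alone, an alpha V segment, read 7.44, 7.47, 7.56 and 7.68 in Cd72+/-;Pax5+/-, 9.95, 9.98, 10.14 and 10.19 in Pax5+/- and 5.95, 6.93, 6.18 and 7.26 in WT. The 3 groups did not overlap: Pax5+/- was highest, Cd72+/-;Pax5+/- came between and WT was lowest, with WT replicates 2 and 4 above replicates 1 and 3. It rose by 3.485 in Pax5+/- relative to WT (SE 0.225, 11.2-fold higher, limma adjusted p = 6.18e-07) and by 0.96 in the double mutants relative to WT (SE 0.225, 1.94-fold higher, limma adjusted p = 0.0201). In the double mutants relative to Pax5+/- it fell by 2.53 (SE 0.225, 5.77-fold lower, limma adjusted p = 9.56e-06). Of the 52 clusters it was the only one called higher in Pax5+/- relative to WT.

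The rise in Pax5+/- passed with each array left out in turn, with either WT pair left out and with the closest pairs averaged (limma adjusted p = 0.0163), and so did the fall in the double mutants relative to Pax5+/- (0.0343 with pairs averaged). The smaller rise in the double mutants relative to WT was lost with pairs averaged (limma adjusted p = 0.415), with only these 2 groups in the fit (0.0509), and without WT replicate 3 or Cd72+/-;Pax5+/- replicate 2, 3 or 4, with adjusted p of at most 0.0621 over the omissions. It measured 0.44 without WT replicates 1 and 3 and 1.47 without WT replicates 2 and 4. A second cluster that lists Trav14-1 alone, 10414950, rests on other accessions and did not follow. It read 4.74, 4.83, 4.78 and 4.97 in Cd72+/-;Pax5+/-, 4.71, 4.78, 4.82 and 4.80 in Pax5+/- and 4.76, 4.81, 4.82 and 4.90 in WT, so its groups overlapped in all comparisons, and its changes were -0.04, 0.01 and 0.05 in the order Pax5+/- relative to WT, Cd72+/-;Pax5+/- relative to WT and Cd72+/-;Pax5+/- relative to Pax5+/-. The 2 clusters of Trav14-1 thus disagree, and the deposited table does not show which reads the segment. Cluster 10414950 lay below the array medians of 6.91 to 7.005 on every array, so a change could be hidden there. Cluster 10414950 was singled out after its values were seen.

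Segments next to Trav14-1 were mostly not readable. In the RefSeq order its nearest segments are Trav7-5, Trav12-1 and Trav13-1 on one side and Trav15-1-dv6-1, Trav3-2 and Trav9-2 on the other. Of these, only Trav12-1 is listed, in 6 clusters that also list other symbols. Their changes lay between -0.08 and 0.02 in Pax5+/- relative to WT, between 0.0025 and 0.05 in the double mutants relative to WT and between 0.02 and 0.11 in the double mutants relative to Pax5+/-, and none was called.

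Trav14-1 is also listed by clusters 10414754 and 10414860, together with Trav14d-3-dv8, Trav14n-2, Trav3n-3 and Trav3-3. These 2 clusters hold the same values: 7.14, 7.19, 7.26 and 7.29 in Cd72+/-;Pax5+/-, 6.90, 6.88, 7.08 and 7.07 in Pax5+/- and 6.87, 6.77, 6.78 and 6.87 in WT. Cd72+/-;Pax5+/- was highest, and no groups overlapped. The pair rose by 0.40 in the double mutants relative to WT (SE 0.0591, 1.32-fold, limma adjusted p = 0.000869) and by 0.24 in the double mutants relative to Pax5+/- (SE 0.0591, limma adjusted p = 0.0225), and its 0.16 in Pax5+/- relative to WT did not pass (limma adjusted p = 0.149). The 0.24 was no longer called without Pax5+/- replicate 1 or 2 or without Cd72+/-;Pax5+/- replicate 3 or 4, at adjusted p of at most 0.0698 over the omissions, nor with the closest pairs as a random block (0.144) or averaged (0.218), and the 0.40 was lost with pairs averaged (0.0712).

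The other alpha calls were small. Clusters 10414775 and 10414882, which list Trav3n-3, Trav3-3 and Trav13-5 and hold the same values, read 7.68, 7.65, 7.55 and 7.61 in Cd72+/-;Pax5+/-, 7.40, 7.42, 7.37 and 7.44 in Pax5+/- and 7.61, 7.75, 7.58 and 7.62 in WT. The Pax5+/- arrays were the lowest, and the other groups overlapped. They fell by 0.23 in Pax5+/- relative to WT (SE 0.0484, limma adjusted p = 0.00919), differed by -0.02 in the double mutants relative to WT without passing, and rose by 0.215 in the double mutants relative to Pax5+/- (SE 0.0484, limma adjusted p = 0.0128). The fall was lost with the closest pairs as a random block (limma adjusted p = 0.0615), with pairs averaged (0.311) and without WT replicates 2 and 4 (0.0668), and the rise with the block (0.0763) and with pairs averaged (0.297).

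Cluster 10414960 lists the same 3 symbols, and read 7.67, 7.58, 7.61 and 7.61 in Cd72+/-;Pax5+/-, 7.49, 7.47, 7.42 and 7.35 in Pax5+/- and 7.74, 7.86, 7.58 and 7.76 in WT. It too was lowest in Pax5+/-, where it fell by 0.30 relative to WT (SE 0.0587, limma adjusted p = 0.00575), a call lost with pairs averaged (0.206) and without WT replicates 2 and 4 (0.0572). The differences of -0.12 in the double mutants relative to WT and 0.18 relative to Pax5+/- (limma adjusted p = 0.302 and 0.0706) did not pass. The second did so without WT replicate 2 or 3 (limma adjusted p = 0.0484 and 0.0318), without either WT pair (0.023 and 0.032) and with only the mutant groups in the fit (0.0299).

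Trav13-5 has a cluster of its own, 10414973. It read 6.81, 6.85, 6.73 and 6.74 in Cd72+/-;Pax5+/-, 6.61, 6.56, 6.81 and 6.77 in Pax5+/- and 7.03, 7.01, 7.11 and 6.76 in WT, and the groups overlapped in every comparison. The fall of 0.29 in Pax5+/- relative to WT (SE 0.0784, limma adjusted p = 0.0418) was lost when any 1 of 10 of the 12 arrays was left out, all but Pax5+/- replicate 3 and WT replicate 4, at adjusted p of at most 0.13, as well as with pairs averaged (0.322) or as a random block (0.203), without WT replicates 1 and 3 (0.181) and with only the 2 groups compared (0.128). Without WT replicate 4 the change of -0.27 in the double mutants relative to WT passed too (limma adjusted p = 0.0357), as did -0.29 without WT replicates 2 and 4 (0.0271). Of the alpha clusters called in 1 comparison only, the last was 10414805, which lists Trav3n-3 and Trav3-3, at 8.79, 9.05, 8.78 and 8.91 in Cd72+/-;Pax5+/-, 8.46, 8.41, 8.49 and 8.60 in Pax5+/- and 8.84, 8.72, 8.76 and 8.52 in WT. Its mean was lowest in Pax5+/-, whose arrays overlapped WT but not Cd72+/-;Pax5+/-, and it rose by 0.39 in the double mutants relative to Pax5+/- (SE 0.0785, 1.31-fold, limma adjusted p = 0.00606), a call lost with the closest pairs as a random block (0.0514) and averaged (0.116). Its -0.22 in Pax5+/- relative to WT passed without WT replicate 4 (-0.28, limma adjusted p = 0.0429) and without WT replicates 2 and 4 (-0.31, 0.0462).

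**Figure D2:**
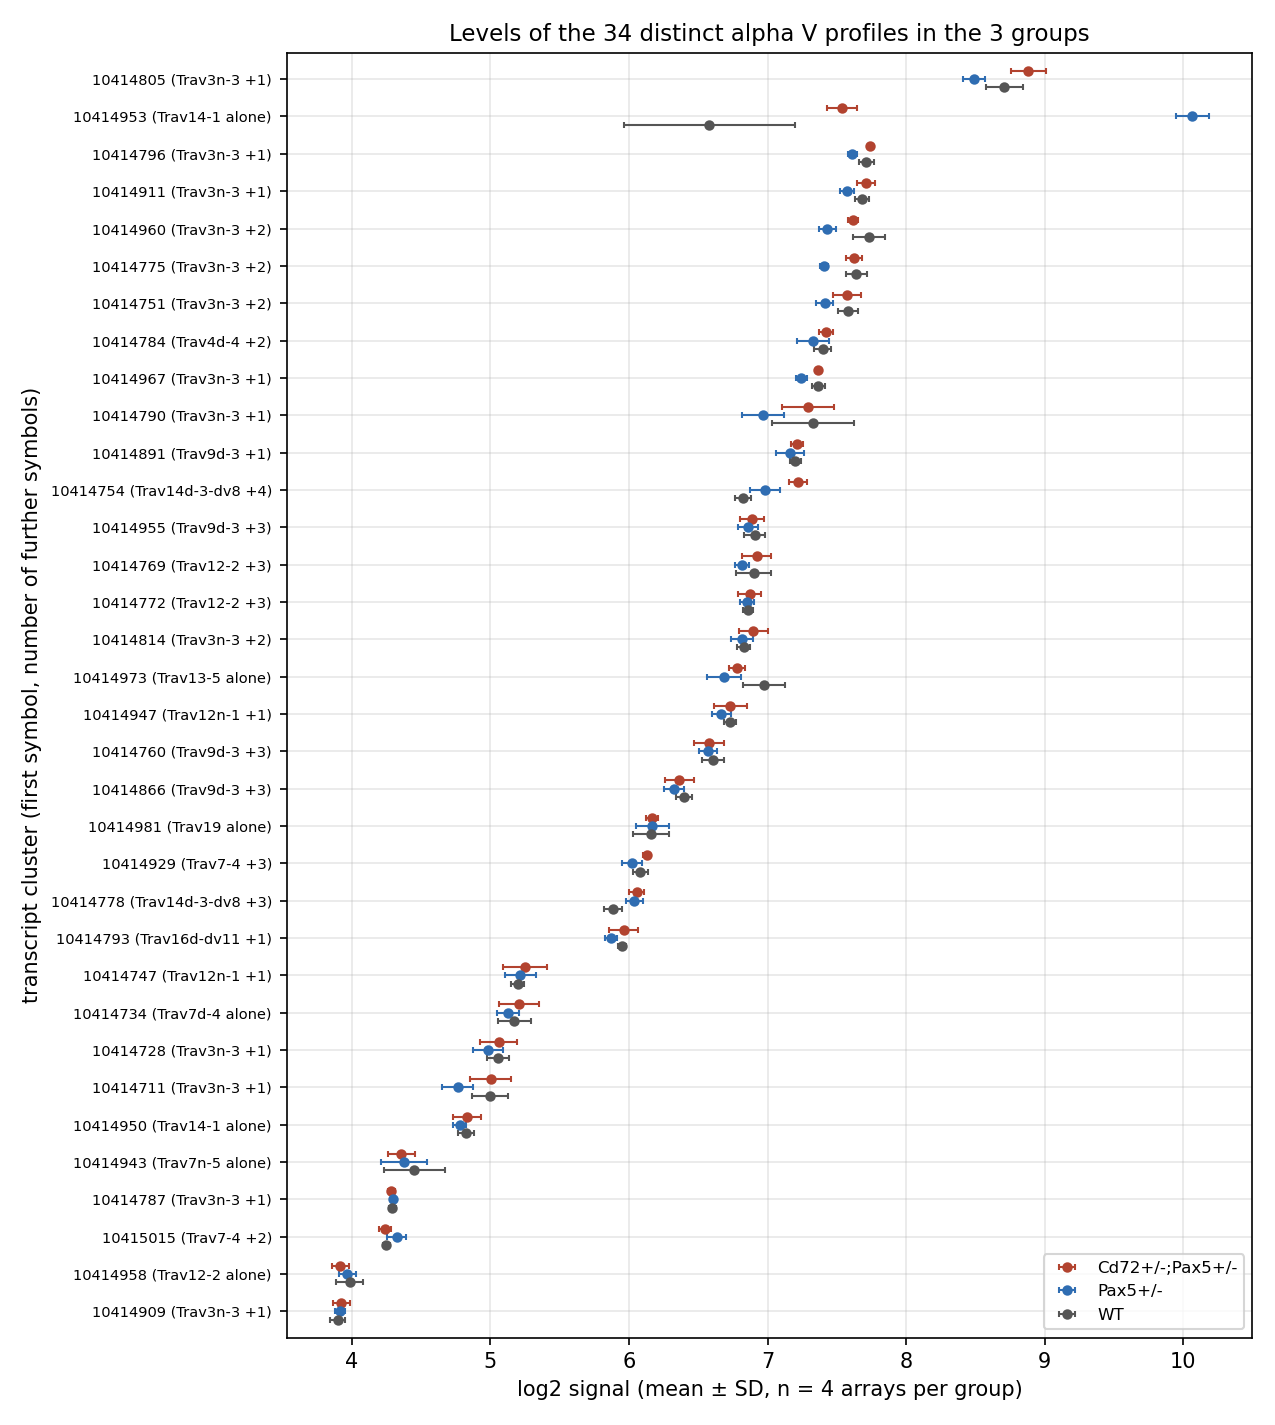
Mean log2 signal (points) and SD (error bars, n = 4 arrays) of the 34 distinct alpha V profiles in Cd72+/-;Pax5+/-, Pax5+/- and WT, 1 row per cluster with its first symbol and the number of further symbols. The 3 group means lie close together in most rows, and cluster 10414953 (Trav14-1 alone) is the row in which they are far apart, at 7.54 in Cd72+/-;Pax5+/-, 10.07 in Pax5+/- and 6.58 in WT. Rows are sorted by mean signal, and levels of different clusters are not comparable because their probes differ.

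As a whole, the 29 clusters that list Trav3-3 or Trav3n-3 (21 distinct profiles) moved little. Their changes lay between -0.36 and 0.16 in Pax5+/- relative to WT (median -0.07), between -0.12 and 0.40 in the double mutants relative to WT (median 0.005) and between -0.08 and 0.39 in the double mutants relative to Pax5+/- (median 0.105). The median log2 signal of all 45 alpha clusters was 6.77 to 6.90 on the Cd72+/-;Pax5+/- arrays, 6.73 to 6.82 on the Pax5+/- arrays and 6.72 to 6.83 on the WT arrays, so the arrays of the 3 groups overlapped.

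Trbv1, a V segment of the beta locus with a cluster of its own (10537558), read 7.94, 7.90, 7.93 and 7.92 in Cd72+/-;Pax5+/-, 8.11, 7.84, 8.23 and 8.03 in Pax5+/- and 8.04, 8.62, 8.18 and 8.54 in WT. Every Cd72+/-;Pax5+/- array was below every WT array, and WT replicates 2 and 4 were again the highest. It fell by 0.42 in the double mutants relative to WT (SE 0.118, 1.34-fold lower, limma adjusted p = 0.0484), while the -0.29 in Pax5+/- relative to WT and the -0.13 between the mutant groups did not pass (limma adjusted p = 0.198 and 0.596). The call was lost on leaving out any 1 of 9 of the 12 arrays, all but Pax5+/- replicate 2 and WT replicates 1 and 3 (adjusted p of at most 0.121), with only the 2 groups compared (0.0615), and with the closest pairs as a random block (0.098) or averaged (0.531). Without WT replicate 1 the change in Pax5+/- relative to WT passed (-0.39, limma adjusted p = 0.0437). Without WT replicates 2 and 4 the change in the double mutants relative to WT was -0.19 (limma adjusted p = 0.23). Without WT replicates 1 and 3 it was -0.66 (limma adjusted p = 0.00053). In Pax5+/- relative to WT the changes in these settings were -0.06 (limma adjusted p = 0.862) and -0.53 (limma adjusted p = 0.00135).

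The other beta cluster, 10537624, lists Trbv13-2 and Trbv1. It read 4.71, 4.81, 4.85 and 4.82 in Cd72+/-;Pax5+/-, 4.78, 4.87, 4.91 and 4.88 in Pax5+/- and 4.85, 4.75, 4.72 and 4.84 in WT. Its groups overlapped, and its changes of 0.07, 0.01 and -0.06 in the 3 comparisons did not pass. The single delta cluster, 10419733 for Trdv2-2, a V segment of the delta chain, read 5.04, 5.01, 5.02 and 4.96 in Cd72+/-;Pax5+/-, 5.04, 5.02, 5.20 and 5.15 in Pax5+/- and 5.06, 5.20, 5.01 and 5.09 in WT. These groups overlapped too, with changes of 0.01 in Pax5+/- relative to WT, -0.08 in the double mutants relative to WT and -0.09 in the double mutants relative to Pax5+/-, none of which passed.

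At the study's stated threshold, a p under 0.05 and a change over 2-fold (counted here with unadjusted p), 4 of the 52 passed in Pax5+/- relative to WT, 1 in the double mutants relative to WT and 2 in the double mutants relative to Pax5+/-, beside 0.957%, 0.914% and 1.2% of all clusters. The 4 were the 3 gamma clusters and cluster 10414953, the 1 was gamma cluster 10403816, and the 2 were clusters 10403821 and 10414953. Arrays of the compared groups did not overlap in 15, 8 and 14 of the 52, beside 10.7%, 14.8% and 18.5% of all clusters. Both comparisons with WT share the WT arrays, and each mutant group stands in 2 comparisons, so their counts are not independent.

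**Figure D3:**
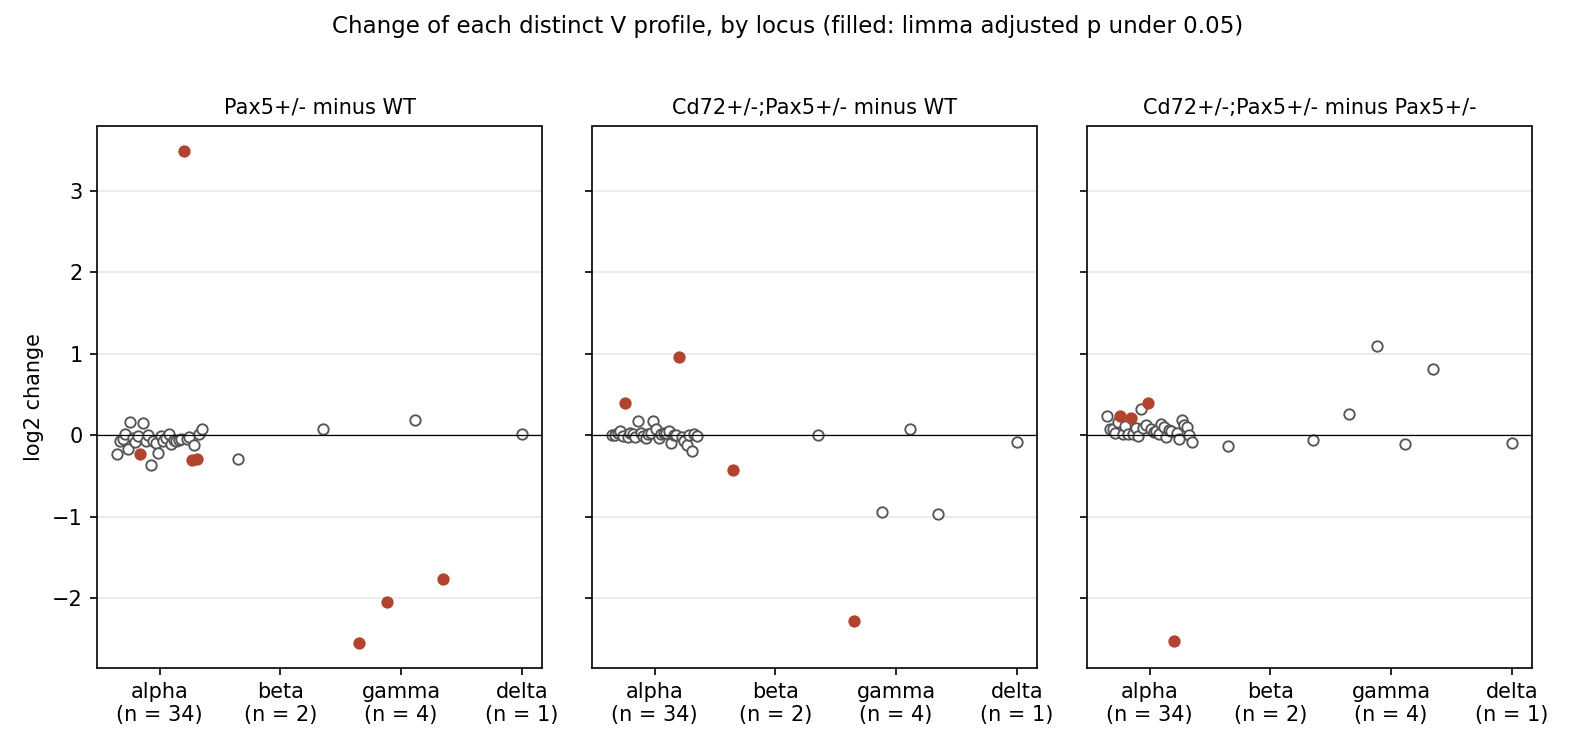
Log2 change of each distinct V profile (points) by locus in Pax5+/- relative to WT, Cd72+/-;Pax5+/- relative to WT and Cd72+/-;Pax5+/- relative to Pax5+/-, with profiles past the limma test filled. Alpha, beta and delta profiles gather near 0 except Trav14-1 at 3.485, 0.96 and -2.53, and the gamma profiles reach -2.55 in Pax5+/- relative to WT.

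By locus, the median log2 change in the 4 gamma clusters was -1.91 in Pax5+/- relative to WT, -0.95 in the double mutants relative to WT and 0.54 in the double mutants relative to Pax5+/-. In the 45 alpha clusters it was -0.07, 0.01 and 0.08. Over all 23410 tested clusters it was -0.005, 0.0025 and 0.005. In Pax5+/- relative to WT the mean was higher in 14 and lower in 38 of the 52 V clusters (11 and 30 of 41 distinct profiles), beside 11098 and 12214 of all 23410. It was higher in the double mutants relative to WT in 32 and lower in 20 (24 and 17 profiles), beside 11769 and 11519. Relative to Pax5+/- it was higher in the double mutants in 41 and lower in 11 (31 and 10 profiles), beside 12215 and 11104. These signs are not independent, because 29 of the 52 clusters list Trav3-3 or Trav3n-3. Array medians ran from 6.91 to 7.005, and the part of array level in the sign counts was not tested. Changes were within 0.5 in 48, 48 and 49 of the 52, beside 22507, 22564 and 22283 of all 23410.

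T-cell markers were set beside the V clusters. Their list mean was 6.24 to 6.38 on the Cd72+/-;Pax5+/- arrays, 6.30 to 6.40 on the Pax5+/- arrays and 6.31 to 6.36 on the WT arrays. Of 18 measured markers, 1 rose and 0 fell in Pax5+/- relative to WT, 0 passed in the double mutants relative to WT (2 at an unadjusted p under 0.05), and 0 rose and 2 fell in the double mutants relative to Pax5+/-. Over all clusters 7.47%, 7.78% and 9.79% passed in these comparisons, and 18 markers are too few to set their counts apart from these shares. The counts of the cell-type and gene lists that follow were not tested against these shares either. The riser was Cd28, a co-stimulatory receptor, by 0.39 (limma adjusted p = 0.00174). The 2 that fell were Cd5, an inhibitory surface receptor, and Zap70, the kinase that binds the activated receptor, with changes of -0.35 and -0.24 (limma adjusted p = 0.0217 and 0.0484). Cd3e, a signalling subunit of the receptor complex, read 6.85 to 7.03 in Cd72+/-;Pax5+/-, 6.89 to 7.05 in Pax5+/- and 7.03 to 7.15 in WT. It differed by -0.10 in Pax5+/- relative to WT (limma adjusted p = 0.377) and Cd3g differed by 0.01 without passing.

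Markers of other cells that could be in the sample were likewise set beside the V clusters. Natural killer and innate lymphoid markers had list means of 5.65 to 5.69 in Cd72+/-;Pax5+/-, 5.66 to 5.75 in Pax5+/- and 5.57 to 5.79 in WT. Of 11 measured, only Nkg7, a granule protein of cytotoxic cells, passed, with a change of 0.54 in Pax5+/- relative to WT (limma adjusted p = 0.0249) and of -0.69 in the double mutants relative to Pax5+/- (limma adjusted p = 0.00433). Of 7 plasmacytoid dendritic markers, 3 rose and 2 fell in Pax5+/- relative to WT, 2 rose in the double mutants relative to WT, and 2 rose and 1 fell in the double mutants relative to Pax5+/-. Of 10 myeloid markers 2, 1 and 0 rose and 0 fell in any comparison, and 0 of 3 erythroid markers passed (1 at an unadjusted p under 0.05 in Pax5+/- relative to WT and 1 between the mutants). Of 10 stromal and endothelial markers, 1 fell in Pax5+/- relative to WT, 3 fell in the double mutants relative to WT, and 1 rose and 1 fell between the mutant groups. Their list mean was 6.80 to 7.02 in Cd72+/-;Pax5+/-, 6.91 to 7.79 in Pax5+/- and 7.63 to 8.08 in WT, and its part in the V results was not tested.

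The pro-B markers, which define the labelled cells, had list means of 11.34 to 11.57 in Cd72+/-;Pax5+/-, 11.63 to 11.82 in Pax5+/- and 11.02 to 11.95 in WT. Of 11 measured, 1 rose and 1 fell in each comparison. Dntt fell in the double mutants, with changes of -2.34 relative to WT (limma adjusted p = 0.00515) and -2.12 relative to Pax5+/- (limma adjusted p = 0.00809). Of the 15 measured V(D)J recombination genes, Dntt was the only one that passed, in those 2 comparisons, and 0 passed in Pax5+/- relative to WT in limma (1 at an unadjusted p under 0.05).

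**Figure D4:**
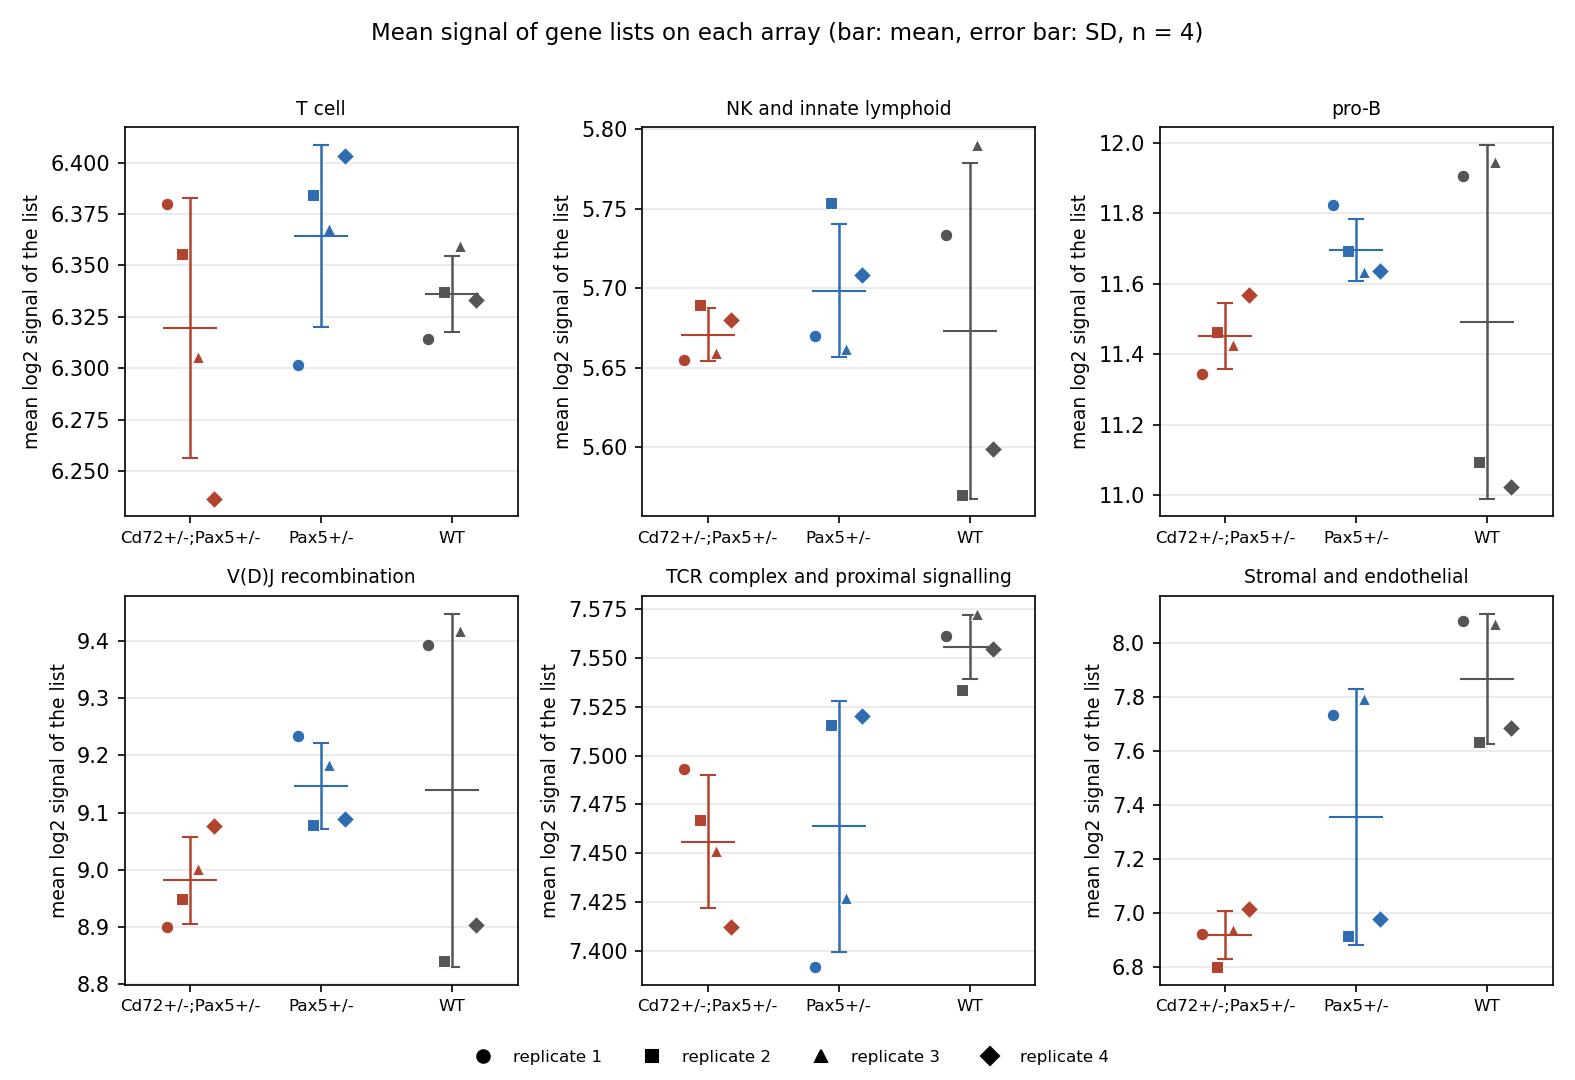
Mean log2 signal of gene lists on each array (points, with a marker per replicate), with group mean (bar) and SD (error bar, n = 4), for Cd72+/-;Pax5+/-, Pax5+/- and WT from left to right. Each panel has its own vertical scale. The T-cell markers lie between 6.24 and 6.40 on all arrays, and the pro-B markers are lower in WT replicates 2 and 4 than in WT replicates 1 and 3.

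Genes that carry the receptor's signal changed in both directions. Of 29 measured genes of the receptor complex and its proximal signalling, 2 rose and 5 fell in Pax5+/- relative to WT, 2 rose and 5 fell in the double mutants relative to WT, and 4 rose and 5 fell in the double mutants relative to Pax5+/-. Plcg1, a phospholipase activated downstream of the receptor, fell by 1.07 in Pax5+/- relative to WT (limma adjusted p = 0.00105), rose by 0.59 in the double mutants relative to WT (limma adjusted p = 0.0475) and rose by 1.66 in the double mutants relative to Pax5+/- (limma adjusted p = 2.2e-05). Its WT arrays read 9.63 and 9.49 in replicates 1 and 3, but 8.81 and 8.79 in replicates 2 and 4. Genes of the lists were not examined under the alternative settings used for the V clusters. Lat, the adaptor on which the signalling complex assembles, fell by 0.68 in Pax5+/- relative to WT (limma adjusted p = 3.43e-05) and rose by 0.63 in the double mutants relative to Pax5+/- (limma adjusted p = 5.29e-05). Grap2, an adaptor that binds Lat, fell in both mutants relative to WT, with changes of -0.52 in Cd72+/-;Pax5+/- and -0.67 in Pax5+/- (limma adjusted p = 0.00259 and 0.000342).

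Sla, an adaptor that dampens receptor signalling, fell in the double mutants, with changes of -0.73 relative to WT and -1.02 relative to Pax5+/- (limma adjusted p = 0.0003 and 1.33e-05). Ubash3a, a phosphatase-like suppressor of T-cell signalling, fell by 1.03 in the double mutants relative to Pax5+/- (limma adjusted p = 0.000115). Fyn, a Src-family kinase, rose by 0.34 in the double mutants relative to WT (limma adjusted p = 0.00313), and Prkcq, a kinase downstream of Cd28, fell by 0.42 in the same comparison (limma adjusted p = 0.00154). The receptor's own subunits Cd3d, Cd3e, Cd3g and Cd247 and the co-receptors Cd4 and Cd8a passed in none of the comparisons.

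Among 24 measured factors known to act on T-cell receptor loci or on the choice of the T lineage, 3 rose and 4 fell in Pax5+/- relative to WT, 1 rose and 3 fell in the double mutants relative to WT, and 2 rose and 4 fell in the double mutants relative to Pax5+/-. Tcf3, which encodes the E proteins that open lymphoid loci, fell by 0.47 in Pax5+/- relative to WT and rose by 0.55 in the double mutants relative to Pax5+/- (limma adjusted p = 0.000397 and 9.12e-05). Hes1, a target of Notch signalling, fell in both mutants relative to WT, with changes of -0.77 in Cd72+/-;Pax5+/- and -0.54 in Pax5+/- (limma adjusted p = 8.58e-05 and 0.00128). Ebf1, a factor that specifies the B lineage, rose by 0.31 in Pax5+/- relative to WT (limma adjusted p = 0.00816). Ets1, a factor of lymphoid enhancers, fell in the double mutants, with changes of -0.47 relative to WT and -0.52 relative to Pax5+/- (limma adjusted p = 0.0103 and 0.00437). Of the factors tied to the gamma locus, Il7r read 12.20 to 12.24 in Cd72+/-;Pax5+/-, 12.48 to 12.58 in Pax5+/- and 11.07 to 12.47 in WT. Its differences of 0.755 in Pax5+/- relative to WT and 0.45 in the double mutants relative to WT did not pass (limma adjusted p = 0.146 and 0.435). Stat5b, which acts downstream of it, differed by -0.035 in Pax5+/- relative to WT without passing (limma adjusted p = 0.897).

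Genes that adjoin the receptor loci in the RefSeq order and are not segments were measured only in part. There were 30 of them for alpha and delta, 28 for beta and 10 for gamma. The counts below are too small to set apart from the shares of all clusters that passed, 7.47%, 7.78% and 9.79%. List means were 5.55 to 5.66 for the beta neighbours, 6.005 to 6.245 for gamma and 6.34 to 6.57 for alpha and delta. All lay below the array medians of 6.91 to 7.005, so changes could be hidden there. Of 8 measured neighbours of the alpha and delta loci and 15 of the beta locus, 0 passed in limma in either comparison with WT (1 to 2 of each at an unadjusted p under 0.05). In the double mutants relative to Pax5+/-, Abhd4 next to the alpha and delta loci fell by 0.70 (limma adjusted p = 0.00303) and Ephb6 next to the beta locus fell by 0.21 (limma adjusted p = 0.0353). The 2 measured neighbours of the gamma locus passed in none, adjusted or unadjusted. Amph differed by 0.0025 in Pax5+/- relative to WT and by -0.03 in the double mutants relative to WT, and Stard3nl by -0.07 and 0.09.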

How the data were processed

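The log2 signal of 28944 transcript clusters on 12 arrays was deposited by the authors as 1 table. Per the labels and the series' design text, it came from Affymetrix Mouse Gene 1.0 ST arrays and Transcriptome Analysis Console 4.0.3, named also in the submitters' processing notes. How background and scale were treated, and the genome build, is not given in the sources used here, and coordinates are left out. Array medians ran from 6.91 to 7.005.

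The 23410 clusters with a platform symbol were fitted with limma 3.58.1 in R 4.3.3 (a mean per group, 9 residual and 3.28 prior degrees of freedom, no filter), a step tested on simulated data. Called means a Benjamini-Hochberg adjusted p under 0.05 over all 23410. The number of arrays limits the precision. Exact permutation tests are two-sided.

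Clusters named are the called ones with the largest changes and, per locus, the 2 with the highest mean. From each list, up to 4 called genes with the smallest adjusted p and up to 2 others are named. Other names were picked with their values in view. V clusters and lists were chosen with earlier results of these data known. Of the 27 symbols, 27 matched RefSeq by Entrez identifier. Alternatives were other scalings, dim filters, priors, weights, thresholds, subsets of arrays, closest pairs averaged or as a random block, and each array left out. Figures used Python 3.11.15, pandas 2.3.3 and matplotlib 3.10.9.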

Additional observations from a re-analysis of the deposited data

How the results depend on the processing

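Over the 14 named clusters in 3 comparisons, 987 of 1110 recomputed values kept direction and side of the threshold, 82 lost a call and 27 gained one. Another 14, from 4 differences of at most 0.0175 that were called in neither fit, changed sign, and 0 called values did. The counts of called V clusters were, for Pax5+/- relative to WT, the double mutants relative to WT and the double mutants relative to Pax5+/-, 8, 5 and 6. With closest pairs averaged they were 1, 0 and 1, and with closest pairs as a random block (consensus correlation 0.427) 5 in the first and 1 in the third. At the study's threshold they were 4, 1 and 2. In the third comparison there were 10 after a common median, 10 with only the 2 groups compared, 11 at an adjusted p under 0.1, and, in settings chosen after the data were seen, 12 without WT replicates 1 and 3 and 10 without WT replicates 2 and 4. With only the 2 groups compared the second count was 3. Leaving out 1 array gave 7 to 9, 3 to 7 and 4 to 7, and the 3 came without Cd72+/-;Pax5+/- replicate 2, 3 or 4. Where pairs were averaged, a group holds 2 values, so the test has fewer degrees of freedom. The cause of the other shifts was not tested. Cluster 10407940 was no longer called in Pax5+/- relative to WT with only those groups in the fit (limma adjusted p = 0.0634). No paired analysis was possible because sample numbers run from 1 to 12 across the titles and no number occurs in more than 1 group. Signal over background is unknown, and dim V clusters could hide changes.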
